A study of Ovis aries with 9 samples.

Results

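Collagens are the triple-helical proteins that make up most of the connective tissue of muscle. Fibrillar chains, led by types I and III, build the load-bearing fibres around muscle fibres and bundles, with type V chains inside the same fibrils. Type IV chains form the network of the basement membrane that wraps each muscle fibre and capillary. Types XV and XVIII, the multiplexins, sit in or beside that membrane, and type VI filaments link it to the fibrils. Fibril-associated collagens coat fibrils or connect them to other matrix, and transmembrane collagens are cell surface proteins.

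The collagens described here are the loci of the expression table whose name has the form COL, number, A, number. There were 42 such names at 43 loci, of 22605 loci in all, and of the 2 loci of COL6A2 the higher was kept. The names comprise 11 fibrillar chains, 7 basement membrane chains and 24 others, and the others include 5 type VI chains, 9 fibril-associated collagens and 4 transmembrane collagens. COL4A2 and COL9A1 are not among them, since the table names those loci only by a locus number.

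The RNA came from the longissimus dorsi, the long muscle of the back, of Chinese merino sheep fetuses. Pregnancy days 85, 105 and 135 (D85, D105 and D135) were sampled in 3 libraries each, with no treatment named. Each library is bulk tissue, so fewer cells of a type and less RNA per cell cannot be told apart. Whether libraries of the same day are from different fetuses is not stated in the labels, so the p-values cover variation among the libraries alone, and that variation may be technical.

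Levels are FPKM, counted fragments relative to transcript length and to the library's mapped fragments, so levels of different genes can be compared. Changes between days are differences in mean log2(FPKM + 1), which understate the change of low genes, and they are given with a standard error (SE). A gene was called higher or lower when its limma p-value, adjusted by the Benjamini-Hochberg method over all 13086 tested loci, was under 0.05. The total per library ranged from 395797 to 489270 FPKM, the read depth is unknown, and steps between low values put it at 0.991 to 1.20 times that of D85 replicate 1. Muscle markers were abundant in every library, and 9 skeletal muscle marker loci summed to 7219 to 20491 FPKM. D105 replicate 2 stood apart from the other D105 libraries at many collagens, so results are also given without it. Over all tested loci the log2 change had a median of -0.02 between D105 and D85, -0.33 between D135 and D105, and -0.35 between D135 and D85. After median-of-ratios scaling, which sets the typical locus equal between libraries, these medians were all 0.00, so changes at D135 are also given on that scale.

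COL3A1 had the highest mean level over the 9 libraries, 967 FPKM, followed by COL1A2 with 956 and COL1A1 with 604 FPKM. Among basement membrane collagens COL15A1 led with a mean of 125 FPKM, ahead of COL4A1 with 74.6 FPKM. Among the others the type VI chains COL6A1, COL6A2 and COL6A3 led with means of 62.9, 55.3 and 40.4 FPKM. The 11 fibrillar chains summed to 2986, 2181 and 1899 FPKM at D85, 2346, 6528 and 2353 FPKM at D105, and 1234, 1778 and 3055 FPKM at D135. These sums overlapped between days, and the highest was that of D105 replicate 2. The 7 basement membrane chains summed to 155, 195 and 161 FPKM at D85, 287, 265 and 261 FPKM at D105, and 192, 188 and 231 FPKM at D135. Here every D105 library lay above every library of the other days. COL15A1 was the largest part of this sum in every library, and its mean was 77.3, 169 and 129 FPKM at D85, D105 and D135. The order is not shared by the class, since COL4A1 overlapped between days and COL18A1 was lowest at D135.

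**Figure D1:**
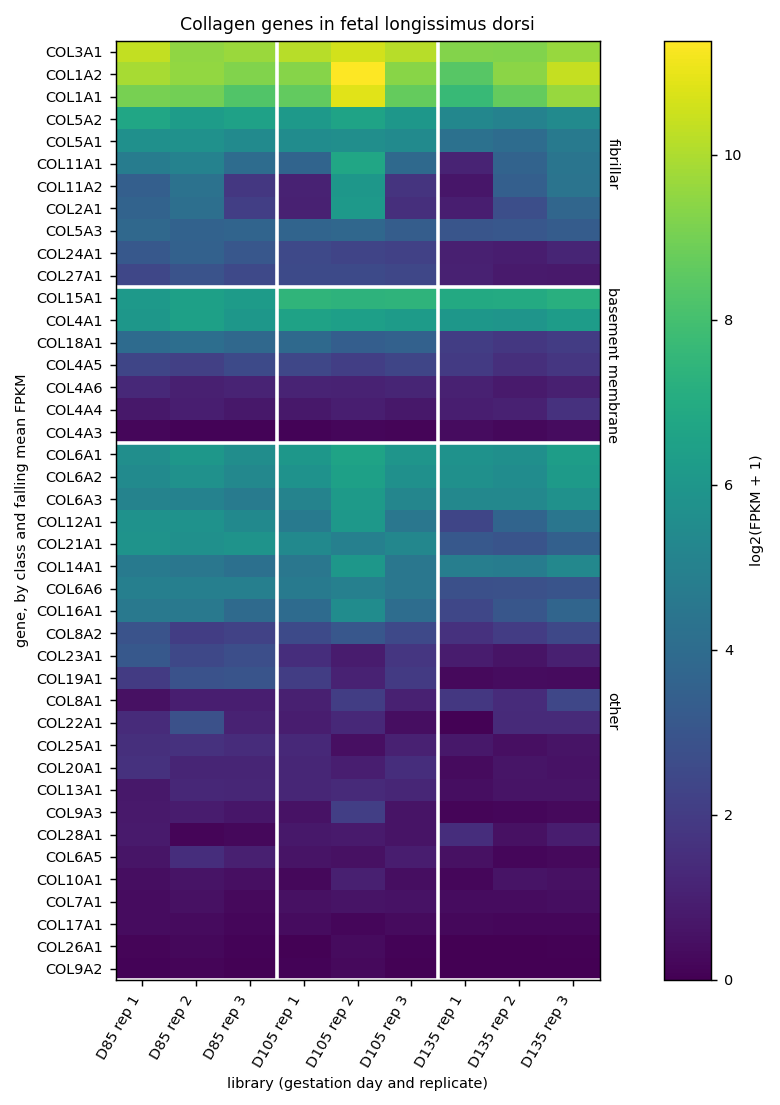
Levels of the 42 collagens in each library as log2(FPKM + 1), with genes in rows by class and falling mean, and libraries in columns by gestation day. The rows for COL3A1, COL1A2 and COL1A1 are brightest, and D105 replicate 2 is the brightest D105 column for COL1A1, COL1A2, COL2A1, COL11A1 and COL11A2.

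Of the 42 collagens, 32 reached 1 FPKM in at least 3 libraries and were tested, comprising 11 fibrillar, 5 basement membrane and 16 other chains. The 10 that were not tested are COL4A3 and COL4A4 of the basement membrane, and COL6A5, COL7A1, COL9A2, COL9A3, COL10A1, COL17A1, COL26A1 and COL28A1. Their highest value in any library was 3.32 FPKM, for COL9A3 in D105 replicate 2.

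Between D105 and D85 COL15A1 was the sole collagen called, and it was higher at D105. Of all tested loci 0.145% were called higher and 0.0535% lower in this comparison. At an unadjusted p under 0.05, limma gave 1 collagen higher and 6 lower, beside 5.65% and 6.66% of all tested loci. The median log2 change of the 32 collagens was -0.08, and -0.17 without D105 replicate 2.

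Between D135 and D105 15 of the 32 collagens were called lower, 46.9% of them, and 0 were called higher. Of all tested loci 39.5% were called, 35% lower and 4.47% higher, and the collagens were not tested against that share. The calls covered 6 of 11 fibrillar chains, 3 of 5 basement membrane chains and 6 of 16 others. At an unadjusted p under 0.05, limma gave 0 collagens higher and 17 lower, beside 6.01% and 43.8% of all tested loci. The median log2 change of the collagens was -0.65, against -0.33 for all loci. After median-of-ratios scaling 8 collagens were called lower and 0 higher, where 7.31% of all loci were lower and 10.3% higher, and the median collagen change was -0.33. Without D105 replicate 2, 14 were called lower, of which 12 were among the 15. Of those 15, COL13A1, COL19A1 and COL20A1 reached 1 FPKM in no D135 library, so they were tested through the earlier days alone.

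Between D135 and D85 15 collagens were called lower and 2 higher, beside 39.7% and 6.9% of all tested loci. The lower calls covered 5 of 11 fibrillar chains, 2 of 5 basement membrane chains and 8 of 16 others, and the higher calls were COL15A1 and COL8A1. The median log2 change was -0.70, against -0.35 for all loci. After median-of-ratios scaling 11 collagens were lower and 4 higher, where 12.8% of all loci were lower and 14.8% higher. The 4 that were higher on that scale added COL6A2 and COL6A3. COL13A1, COL19A1, COL20A1 and COL25A1 reached 1 FPKM in no D135 library, and COL8A1 in no D85 library. They were tested only through the days where they were higher, which favours their calls. With no filter on low values the 15 falls were still called, while COL8A1 was not (adjusted p = 0.0542).

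By ranges alone, every D135 library lay below every D105 library for 18 of the 32 collagens and above for 0, beside 47.7% and 6.43% of all tested loci. Every D135 library lay below every D85 library for 16 collagens and above for 4, beside 48.8% and 9.42% of all tested loci. Every D105 library lay below every D85 library for 4 collagens and above for 2, beside 10.4% and 8% of all tested loci.

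**Figure D2:**
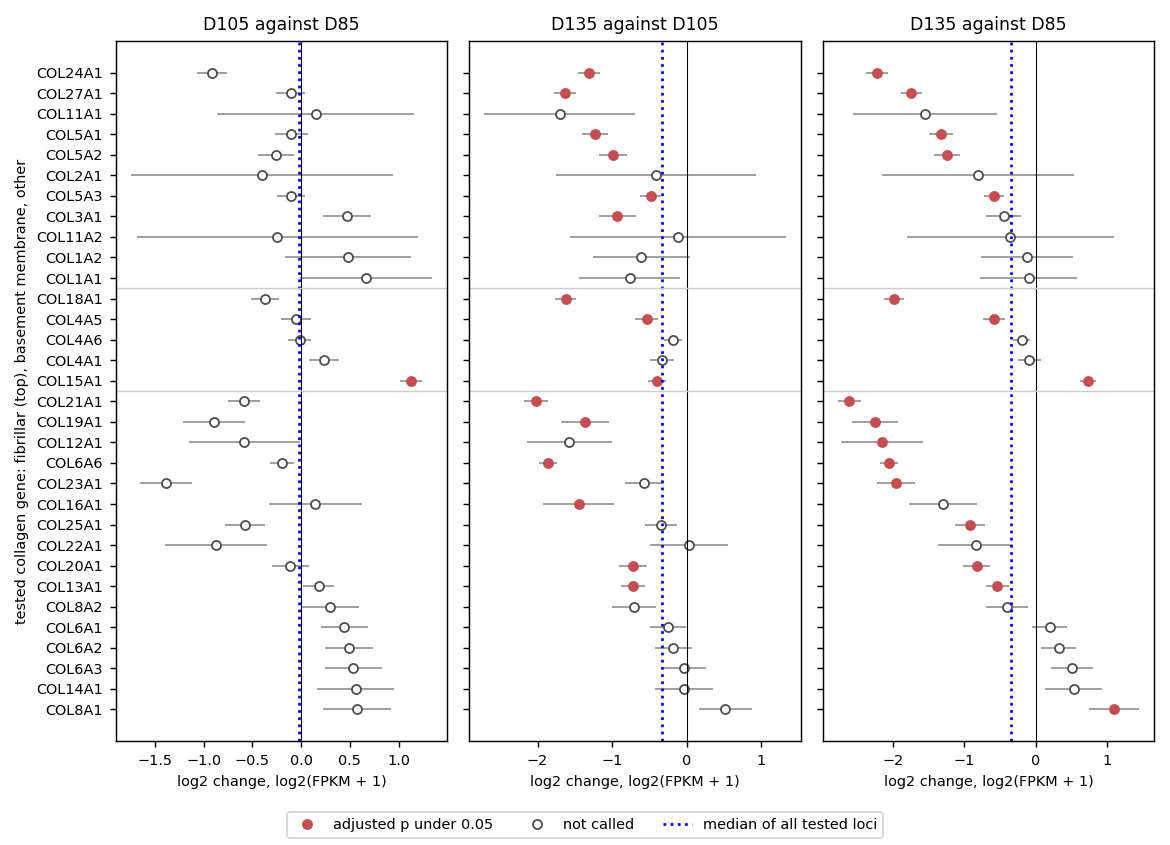
Change in mean log2(FPKM + 1) of the 32 tested collagens for each pair of days, with bars of 1 SE, filled points for adjusted p under 0.05 and a dotted line at the median of all tested loci. D105 against D85 has 1 filled point, COL15A1, and the filled points of D135 against D105 all lie left of 0, that of COL15A1 moving to 0.04 after median-of-ratios scaling and to -0.50 after quantile normalization.

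Skeletal muscle and fibroblast markers are given beside these falls, and their part in them was not tested. The 9 skeletal muscle marker loci summed to 7219 to 9675 FPKM at D85, 8870 to 11955 FPKM at D105 and 16936 to 20491 FPKM at D135. None of these loci was at 0 in any library, and the D135 sums lay above those of both other days. The 12 fibroadipogenic and fibroblast marker loci summed to 434 to 616 FPKM at D85, 465 to 870 FPKM at D105 and 385 to 516 FPKM at D135. These sums overlapped between all days, but their genes did not move together. DCN was the largest part in every library, and DCN, LUM, DPT and FBLN1 are also in the list of fibril partners given below. DPT averaged 42.5, 38.9 and 17.6 FPKM at D85, D105 and D135, and TCF7L2 averaged 4.12, 3.34 and 2.02 FPKM. PI16 went the other way, with means of 5.49, 15.2 and 25.6 FPKM. These genes were picked from the 12, and the list was not counted by direction. Whether fibroblast content changed was not tested.

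Type I collagen, the main collagen of tendon and of the perimysium around muscle fibre bundles, was not called in any pair of days. COL1A1, its alpha-1 chain, was at 524, 495 and 308 FPKM at D85, 403, 1889 and 419 FPKM at D105, and 203, 407 and 787 FPKM at D135. COL1A2, its alpha-2 chain, was at 940, 737 and 596 FPKM at D85, 636, 2670 and 658 FPKM at D105, and 344, 684 and 1341 FPKM at D135. For both chains the days overlapped, D105 replicate 2 was highest of all libraries and D135 replicate 1 lowest. COL1A1 averaged 442 ± 117 FPKM at D85, 904 ± 853 FPKM at D105 and 466 ± 296 FPKM at D135 (SD, n = 3), and 411 FPKM over the 2 D105 libraries other than replicate 2. The log2 change of COL1A1 was -0.76 ± 0.68 (SE) for D135 against D105 (adjusted p = 0.399) and -0.10 ± 0.68 for D135 against D85 (adjusted p = 0.916). COL1A2 stood at 1.41 to 1.93 times COL1A1 in each of the 9 libraries.

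COL3A1, the chain of the fine fibres of the endomysium, was at 1291, 723 and 817 FPKM at D85, 1155, 1565 and 1134 FPKM at D105, and 619, 603 and 797 FPKM at D135. Every D135 library was below every D105 library, while D135 and D85 overlapped. It fell at D135 against D105, with a log2 change of -0.93 ± 0.25 (adjusted p = 0.0200), and was not called against D85 (adjusted p = 0.165). That call was lost with median-of-ratios scaling (adjusted p = 0.227), without D105 replicate 2 (adjusted p = 0.0595), and without D135 replicate 1 or 2 (adjusted p = 0.0560 and 0.0647). The ratio of COL3A1 to COL1A1 was 2.46, 1.46 and 2.65 at D85, 2.87, 0.829 and 2.71 at D105, and 3.04, 1.48 and 1.01 at D135. The libraries of a day differed more in this ratio than the day means did. Of 21 exact permutation tests, 2-sided, on 7 chain ratios in 3 pairs of days, 0 gave an adjusted p under 0.525, and 3 libraries against 3 allow no p below 0.1.

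Type V chains, which sit inside type I fibrils and limit their width, were lower at D135 than at both earlier days. COL5A1 was at 51.1, 53.6 and 42.1 FPKM at D85, 46.1, 48.1 and 42.1 FPKM at D105, and 17.8, 15.3 and 24.2 FPKM at D135. COL5A2 was at 106, 77.3 and 90.0 FPKM at D85, 70.9, 95.5 and 63.6 FPKM at D105, and 37.7, 32.5 and 43.0 FPKM at D135. COL5A3 was at 13.6, 11.1 and 11.6 FPKM at D85, 11.7, 12.8 and 9.27 FPKM at D105, and 6.96, 7.46 and 8.84 FPKM at D135. For all 3 chains the D135 libraries lay below those of both other days, and D85 and D105 overlapped. COL5A1 fell by 1.23 on the log2 scale at D135 against D105 (SE 0.17, adjusted p = 0.00211) and by 0.80 after median-of-ratios scaling (adjusted p = 0.0121). COL5A2 fell by 0.99 (SE 0.19, adjusted p = 0.00575), a call lost with median-of-ratios scaling (adjusted p = 0.0758). COL5A3 fell by 0.48 (SE 0.14, adjusted p = 0.0292), a call lost after that scaling (adjusted p = 0.746) and without D105 replicate 1, D105 replicate 2, D135 replicate 1 or D135 replicate 2 (adjusted p up to 0.0835). Against D85, COL5A1, COL5A2 and COL5A3 fell by 1.33, 1.25 and 0.58 (adjusted p = 0.000770, 0.00143 and 0.0115), and COL5A3 was not called after median-of-ratios scaling (adjusted p = 0.456). In the RefSeq gene table COL5A2 and COL3A1 are neighbours.

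COL24A1 and COL27A1, fibrillar chains known mainly from bone and cartilage, were lower at D135 in every library. COL24A1 was at 7.90, 10.8 and 7.45 FPKM at D85, 4.66, 4.10 and 3.57 FPKM at D105, and 1.02, 0.897 and 1.26 FPKM at D135. Its 3 days did not overlap, and each later day was below the one before. It fell by 1.31 at D135 against D105 (SE 0.15, adjusted p = 0.00126) and by 2.22 at D135 against D85 (SE 0.15, adjusted p = 0.000125). At D105 against D85 its log2 change of -0.92 did not pass (adjusted p = 0.0805). COL27A1 was at 4.32, 6.58 and 4.77 FPKM at D85, 4.86, 4.83 and 4.44 FPKM at D105, and 1.07, 0.746 and 0.720 FPKM at D135. Its D85 and D105 libraries overlapped, and all D135 libraries were lower. It fell by 1.63 at D135 against D105 (SE 0.15, adjusted p = 0.000779) and by 1.74 at D135 against D85 (adjusted p = 0.000195).

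COL2A1, COL11A1 and COL11A2, chains of cartilage fibrils, varied widely within each day and were not called in any pair. COL2A1 was at 11.3, 16.7 and 3.33 FPKM at D85, 1.07, 67.8 and 1.88 FPKM at D105, and 0.968, 5.66 and 12.3 FPKM at D135. COL11A1 was at 26.3, 32.2 and 15.2 FPKM at D85, 11.7, 105 and 13.9 FPKM at D105, and 1.22, 11.2 and 20.4 FPKM at D135. COL11A2, whose locus also carries LOC106991802, was at 9.74, 18.7 and 2.61 FPKM at D85, 1.15, 64.3 and 2.26 FPKM at D105, and 0.592, 9.80 and 20.1 FPKM at D135. In all 3 genes D85 replicate 2 was highest at D85, D105 replicate 2 at D105 and D135 replicate 1 lowest at D135. The highest library of a day was at least 4 times the lowest in all 3 days for COL2A1, COL11A2 and COL22A1, 9.38% of the tested collagens, beside 0.543% of all tested loci. COL22A1, a fibril-associated collagen of the muscle-tendon junction, was at 1.61, 6.10 and 1.12 FPKM at D85, 0.892, 1.49 and 0.358 FPKM at D105, and 0.0570, 1.57 and 1.53 FPKM at D135. Its highest libraries at D85 and D105 and its lowest at D135 were the same ones.

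Tendon and cartilage markers were measured in the same libraries, and their part in these values was not tested. TNMD, a tendon membrane protein, was at 17.3, 21.0 and 6.56 FPKM at D85, 2.06, 85.2 and 3.05 FPKM at D105, and 0.0364, 13.1 and 30.6 FPKM at D135. KERA, a proteoglycan of the tendon list, was at 20.1, 29.0 and 11.9 FPKM at D85, 7.61, 149 and 9.19 FPKM at D105, and 4.91, 24.5 and 46.3 FPKM at D135. In both genes the highest and the lowest library of each day were the same as for COL11A2, which held for 3 of the 10 genes of the tendon list. In that list D135 replicate 1 was the lowest D135 library for 9 of 10 genes. It was lowest or tied for 5 of 9 genes of the cartilage list, among them MATN1, at 0 in all D135 libraries. The share of all tested loci was not computed for this or for the order of COL11A2, so these counts have no background. D105 replicate 2 was the highest D105 library for 8 of 10 tendon genes and at least 3 times both others for 5. Over all tested loci, D105 replicate 2 was the highest D105 library for 38.5% and at least 3 times both others for 1.35%. SCX, a tendon transcription factor, did not follow at D105, with 0.311, 0.321 and 0.966 FPKM, nor did EGR1, with 1.17, 0.515 and 0.535 FPKM. TPPP3 was at 114, 139 and 107 FPKM there. The 10 tendon marker loci summed to 185 to 336 FPKM at D85, 183 to 643 FPKM at D105 and 210 to 397 FPKM at D135, with none at 0 in any library. The 9 cartilage marker loci matched, which hold no collagen, summed to 9.42 to 13.9 FPKM at D85, 10.4 to 14.0 FPKM at D105 and 5.05 to 6.81 FPKM at D135. The largest part of that sum in each D105 library was MIA, a protein secreted by cartilage cells, with 7.84, 5.45 and 6.79 FPKM at D105. ACAN, aggrecan, was at 0.593, 1.001 and 0.252 FPKM at D85, 0.237, 2.47 and 0.289 FPKM at D105, and 0.150, 0.437 and 0.724 FPKM at D135. Its highest and lowest library of each day were those of COL11A2. COMP, a cartilage and tendon matrix protein, was at 0.432, 0.691 and 0.0609 FPKM at D85, 0.0197, 2.96 and 0.0208 FPKM at D105, and 0.791 and 0.734 FPKM in D135 replicates 2 and 3, being listed at 0 in D135 replicate 1. Both were at low levels and far higher in D105 replicate 2 than in the other D105 libraries, at 9.38 times their mean for ACAN and 146 times for COMP. Of the 9 cartilage genes 4 were highest at D105 in replicate 2, 2 of them at least 3 times both other libraries, beside 38.5% and 1.35% of all tested loci. SOX9, the cartilage regulator, did not follow, with 1.91, 1.62 and 1.68 FPKM at D105, and MATN1, a cartilage matrix protein, was at most 0.187 FPKM and listed at 0 in all D135 libraries.

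**Figure D3:**
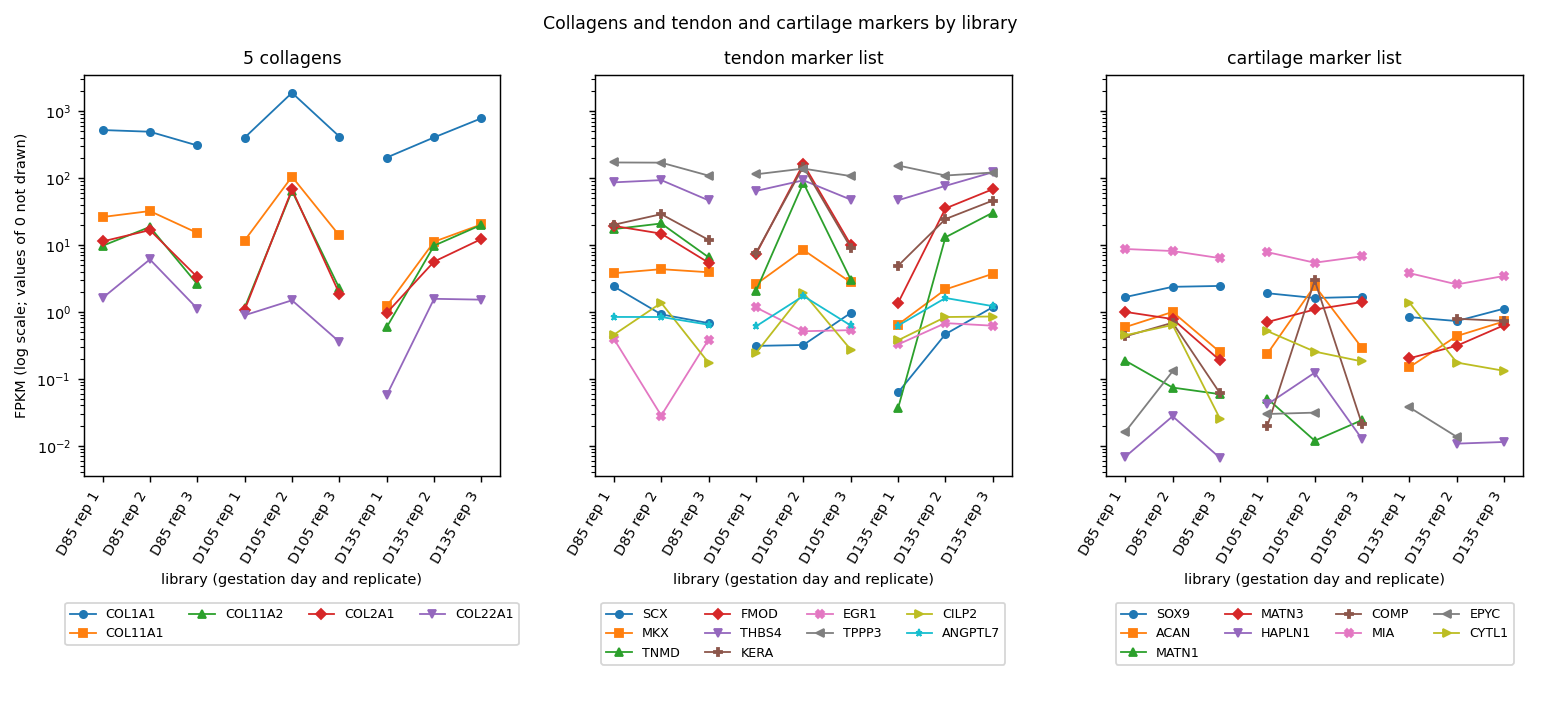
FPKM on a log scale in each library for 5 collagens, the 10 tendon markers and the 9 cartilage markers, with lines joining a gene's points within a day as a guide only and values of 0 not drawn. COL2A1, COL11A1, COL11A2, 8 of 10 tendon markers and 4 of 9 cartilage markers, ACAN and COMP among them, are highest at D105 in replicate 2, while SCX, EGR1, SOX9 and MIA are not. Of all tested loci 38.5% are highest at D105 in that library.

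D105 replicate 2 was the highest D105 library for 20 of the 32 tested collagens, 62.5%, beside 38.5% of all tested loci. It was at least 3 times both other D105 libraries for 6 of the 32, 18.8%, beside 1.35% of all tested loci. Those 6 were COL1A1, COL1A2, COL2A1, COL11A1 and COL11A2 among 11 fibrillar chains, and COL8A1. Of the 5 basement membrane chains tested, 0 were highest in it. Relative to the mean of the other D105 libraries, COL2A1 was 46.0-fold higher, COL11A2 37.6-fold, COL11A1 8.23-fold, COL1A1 4.59-fold and COL1A2 4.13-fold. COL3A1 and COL5A1, found in fibrils together with type I, were at 1.37 and 1.09 times that mean. In the same library the tendon list summed to 643 FPKM, against 201 and 183 FPKM in the other D105 libraries, and the adipocyte list to 121 FPKM, against 11.3 and 14.2 FPKM. The fibroadipogenic and fibroblast list summed to 869.6 FPKM there, against 464.7 and 479.8 FPKM, and the leukocyte list to 39.1 FPKM, against 23.2 and 17.6 FPKM. The part of these lists in the values was not tested. The skeletal muscle list summed to 8870 FPKM there, against 11955 and 9331 FPKM.

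**Figure D4:**
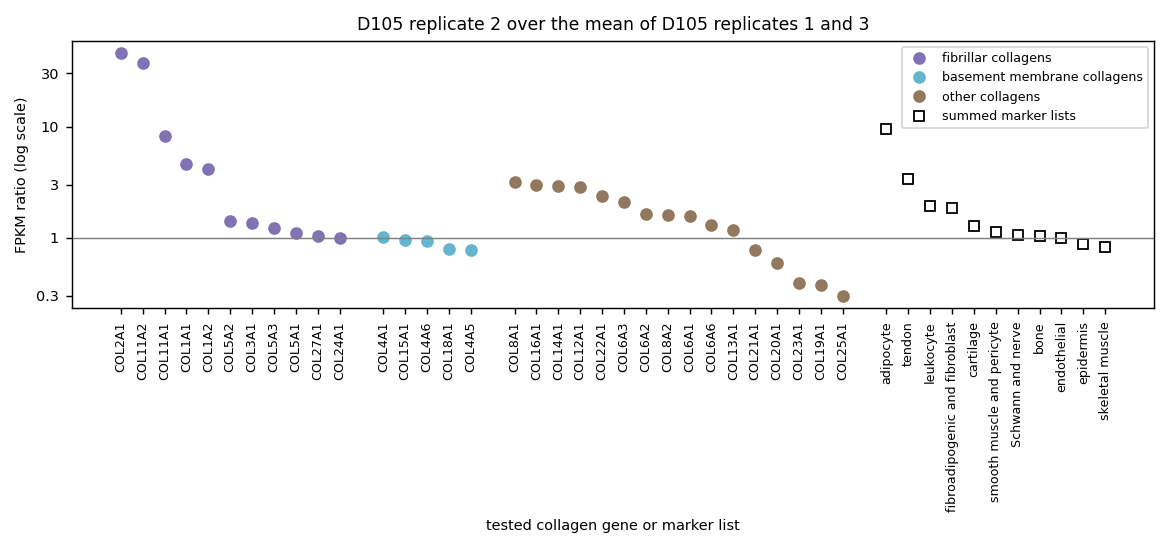
FPKM in D105 replicate 2 over the mean of D105 replicates 1 and 3, on a log scale, for the 32 tested collagens by class and for the 11 summed marker lists. COL2A1 and COL11A2 lie highest at 46.0 and 37.6, the 5 basement membrane chains lie between 0.771 and 1.02, and the adipocyte, tendon, leukocyte and fibroblast lists lie at 9.51, 3.36, 1.92 and 1.84.

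COL15A1, a multiplexin of the outer basement membrane of muscle fibres and capillaries, was at 69.2, 86.8 and 75.9 FPKM at D85, 174, 164 and 170 FPKM at D105, and 120, 122 and 144 FPKM at D135. The 3 days did not overlap, with D105 highest and D85 lowest. It rose at D105 against D85 (log2 change 1.13 ± 0.11, adjusted p = 0.0155) and at D135 against D85 (0.73 ± 0.11, adjusted p = 0.00182). The first call was lost without D85 replicate 3 (adjusted p = 0.0573) and held without D105 replicate 2 (adjusted p = 0.0418). At D135 against D105 it fell by 0.40 (SE 0.11, adjusted p = 0.0274), but after median-of-ratios scaling the change was 0.04 (adjusted p = 0.846). After quantile normalization it was -0.50 and still called (adjusted p = 0.0378). That fall was also not called with totals taken without the top 50 loci (adjusted p = 0.103) or without D105 replicate 1, D105 replicate 3, D135 replicate 1 or D135 replicate 2 (adjusted p up to 0.0844). The 11 endothelial marker loci, none at 0, summed to 173 to 205 FPKM at D85, 267 to 279 FPKM at D105 and 193 to 243 FPKM at D135. This sum too was highest at D105 with no overlap, and its part in the values of COL15A1 was not tested. The smooth muscle and pericyte sum did not have that order, at 230 to 259, 196 to 258 and 159 to 189 FPKM on the same days. COL4A1, given below, overlapped between days, and COL18A1 was lowest at D135.

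COL18A1, the multiplexin from which endostatin is cut, was at 14.7, 16.3 and 13.4 FPKM at D85, 13.9, 9.69 and 10.5 FPKM at D105, and 3.26, 2.62 and 3.06 FPKM at D135. All D135 libraries were below the others, and D85 and D105 overlapped. It fell by 1.62 at D135 against D105 (SE 0.14, adjusted p = 0.000708) and by 1.99 at D135 against D85 (SE 0.14, adjusted p = 0.000141). At D135 against D85 COL15A1 was thus higher and COL18A1 lower, and both calls held under all 22 alternatives.

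COL4A1, a chain of the type IV network found in all basement membranes, was at 65.0, 86.5 and 64.4 FPKM at D85, 92.6, 85.8 and 74.9 FPKM at D105, and 63.8, 59.6 and 78.4 FPKM at D135. The days overlapped and no pair was called (adjusted p = 0.598 between D105 and D85, 0.133 between D135 and D105, and 0.660 between D135 and D85). Its partner COL4A2 lies at a neighbouring locus that the table does not name, identified through the RefSeq gene table. COL4A2 averaged 23.1 ± 2.81 FPKM at D85, 24.5 ± 3.86 FPKM at D105 and 19.3 ± 2.96 FPKM at D135 (SD, n = 3), and was not called in any pair. COL4A2 stood at 0.269 to 0.341 times COL4A1 in each library.

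COL4A5, a type IV chain of a narrower set of basement membranes, was at 4.18, 3.43 and 4.83 FPKM at D85, 4.39, 3.30 and 4.18 FPKM at D105, and 2.82, 1.94 and 2.54 FPKM at D135. The D135 libraries lay below all others. It fell by 0.53 at D135 against D105 (SE 0.15, adjusted p = 0.0269) and by 0.59 at D135 against D85 (adjusted p = 0.0154), and neither call held after median-of-ratios scaling (adjusted p = 0.423 and 0.304). The call against D105 was also lost without D105 replicate 1, D105 replicate 3, D135 replicate 2 or D135 replicate 3 (adjusted p up to 0.0879), and that against D85 without D135 replicate 2 (adjusted p = 0.0533). COL4A6, beside COL4A5 in the RefSeq gene table, ranged from 0.783 to 1.49 FPKM and was not called. COL4A3 and COL4A4 were not tested. COL4A3 averaged 0.0981, 0.107 and 0.264 FPKM at D85, D105 and D135, and COL4A4 averaged 0.765, 0.762 and 1.37 FPKM. For both, every D135 library lay above every D105 and D85 library, as for 6.43% of all tested loci against D105 and 9.42% against D85. For COL4A4 the lowest D135 library was at 0.940 FPKM and the highest D105 library at 0.937 FPKM. Its D135 libraries were at 0.940, 1.03 and 2.13 FPKM, and COL4A3 was at most 0.313 FPKM.

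The main type VI chains, which form beaded filaments next to the muscle basement membrane, were not called in any pair. COL6A1 was at 48.2, 65.1 and 46.6 FPKM at D85, 63.5, 97.4 and 60.5 FPKM at D105, and 55.2, 49.97 and 80.1 FPKM at D135. COL6A2 was at 42.3, 53.0 and 38.7 FPKM at D85, 55.1, 87.0 and 51.6 FPKM at D105, and 51.3, 45.5 and 72.7 FPKM at D135. COL6A3 was at 33.2, 32.3 and 25.6 FPKM at D85, 32.9, 72.5 and 35.9 FPKM at D105, and 38.3, 39.0 and 53.9 FPKM at D135. In all 3 chains D105 replicate 2 was the highest D105 library, and at D135 the COL6A3 libraries were all above those of D85. The log2 change at D135 against D85 was 0.20, 0.32 and 0.50 for COL6A1, COL6A2 and COL6A3 (adjusted p = 0.540, 0.322 and 0.193). After median-of-ratios scaling COL6A2 and COL6A3 were called higher in this comparison, and COL6A3 also without D105 replicate 2. At the kept locus alone, COL6A2 stood at 0.814 to 0.930 times COL6A1 in each library, and the genes are neighbours. The second COL6A2 locus is left out of this ratio, so the ratio does not cover all COL6A2 signal. That locus ranged from 16.6 to 41.3 FPKM in the libraries other than D135 replicate 3, where it was listed at 0.

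COL6A6, an alternative to the alpha-3 chain, did fall. It was at 29.2, 29.4 and 29.2 FPKM at D85, 25.0, 30.3 and 21.8 FPKM at D105, and 5.94, 6.11 and 6.83 FPKM at D135. The D85 and D105 libraries overlapped and every D135 library was far below them. It fell by 1.86 at D135 against D105 (SE 0.12, adjusted p = 0.000348) and by 2.06 at D135 against D85 (SE 0.12, adjusted p = 9.17e-05). After median-of-ratios scaling the falls were 1.46 and 1.63 (adjusted p = 0.000680 and 0.000157). COL6A5, its neighbour, averaged 1.11, 0.591 and 0.260 FPKM at D85, D105 and D135 and was not tested.

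COL21A1, a fibril-associated collagen, had the largest fall on the log2(FPKM + 1) scale of the 32 tested collagens at D135, against D105 and against D85. It was at 56.0, 52.1 and 56.6 FPKM at D85, 41.9, 30.4 and 37.2 FPKM at D105, and 7.80, 6.74 and 10.2 FPKM at D135. The 3 days did not overlap, and each later day was lower. The log2 change was -2.02 ± 0.16 at D135 against D105 (adjusted p = 0.000589) and -2.61 ± 0.16 at D135 against D85 (adjusted p = 9.17e-05). COL19A1, which sits near basement membranes, was at 2.91, 6.21 and 6.75 FPKM at D85, 3.15, 1.12 and 2.86 FPKM at D105, and 0.212, 0.319 and 0.257 FPKM at D135. Its D135 libraries were below all others. It fell by 1.36 at D135 against D105 (SE 0.32, adjusted p = 0.0131) and by 2.25 at D135 against D85 (adjusted p = 0.00120), and the first call was lost with quantile normalization (adjusted p = 0.0555). On the FPKM scale, where low genes are not damped, the mean at D135 was 9.06-fold lower than at D105 and 20.2-fold lower than at D85.

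COL12A1, a fibril-associated collagen of tendon and of muscle fascia, was at 55.3, 54.2 and 40.7 FPKM at D85, 24.2, 66.1 and 21.9 FPKM at D105, and 4.17, 11.7 and 21.4 FPKM at D135. The D135 libraries were all below the others. It fell by 2.15 at D135 against D85 (SE 0.57, adjusted p = 0.0163), a call lost with median-of-ratios scaling (adjusted p = 0.0622), and was not called against D105 (adjusted p = 0.0590). COL16A1, which joins small fibrils, was at 23.2, 23.0 and 14.1 FPKM at D85, 14.6, 44.9 and 15.5 FPKM at D105, and 4.36, 7.36 and 12.1 FPKM at D135. Every D135 library was lower than every other library. It fell by 1.45 at D135 against D105 (SE 0.48, adjusted p = 0.0432), and by 0.94 without D105 replicate 2 (adjusted p = 0.0943). Its call held in 2 of 9 fits that left out a library, those without D105 replicate 1 and D135 replicate 3, and was lost in the others (adjusted p from 0.0504 to 0.123). It was also lost under 6 of the 13 other alternatives, among them median-of-ratios scaling (adjusted p = 0.179) and quantile normalization (adjusted p = 0.148). COL14A1, which binds fibril surfaces, ranged from 17.2 to 64.3 FPKM, highest in D105 replicate 2, and was not called. COL20A1 was at 2.12, 1.24 and 1.29 FPKM at D85, 1.34, 0.926 and 1.82 FPKM at D105, and 0.276, 0.542 and 0.460 FPKM at D135. It was below all earlier libraries at D135, by 0.71 against D105 (adjusted p = 0.0200) and by 0.82 against D85 (adjusted p = 0.00889) on the log2 scale. The call against D105 was lost with median-of-ratios scaling (adjusted p = 0.0914) and without D105 replicate 1, D105 replicate 3 or D135 replicate 1 (adjusted p up to 0.0586), and both calls with quantile normalization (adjusted p = 0.162 and 0.0626).

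The transmembrane collagens were low throughout. COL23A1 was at 7.85, 4.58 and 5.63 FPKM at D85, 1.84, 0.843 and 2.49 FPKM at D105, and 0.825, 0.525 and 1.02 FPKM at D135. Every D85 library was above all later ones, and D105 and D135 overlapped. It fell by 1.96 at D135 against D85 (SE 0.26, adjusted p = 0.000958). At D105 against D85 its log2 change was -1.39 ± 0.26 (adjusted p = 0.117), and at D135 against D105 it was -0.57 (adjusted p = 0.120). COL25A1, needed in mice for motor nerves to reach muscle, was at 1.86, 2.05 and 1.74 FPKM at D85, 1.51, 0.384 and 1.07 FPKM at D105, and 0.655, 0.388 and 0.533 FPKM at D135. It fell by 0.92 at D135 against D85 (SE 0.21, adjusted p = 0.00863), and its D105 libraries overlapped those of D135. The call was lost with quantile normalization (adjusted p = 0.0582). COL13A1, a protein of the nerve-muscle synapse in mice, was at 0.680, 1.42 and 1.34 FPKM at D85, 1.36, 1.55 and 1.30 FPKM at D105, and 0.360, 0.508 and 0.515 FPKM at D135. The D135 libraries were below all others. It fell by 0.72 at D135 against D105 (adjusted p = 0.00990) and by 0.54 at D135 against D85 (adjusted p = 0.0239). The call against D85 was lost with median-of-ratios scaling (adjusted p = 0.134) and without D85 replicate 2, D85 replicate 3, D135 replicate 1 or D135 replicate 2 (adjusted p up to 0.0731), and that against D105 with quantile normalization (adjusted p = 0.101). COL17A1, of epithelial anchoring, was at most 0.298 FPKM.

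COL8A1, a network-forming collagen of vessel walls, was at 0.434, 0.926 and 0.918 FPKM at D85, 1.003, 3.25 and 1.06 FPKM at D105, and 2.55, 1.68 and 4.43 FPKM at D135. Every D85 library was below all later ones, and D105 and D135 overlapped. It rose at D135 against D85 (log2 change 1.09 ± 0.35, adjusted p = 0.0345). The call was lost without any single D85 library and without D135 replicate 1 or D135 replicate 3 (adjusted p from 0.0598 to 0.105). Its partner chain COL8A2 ranged from 2.04 to 7.57 FPKM and was not called. COL10A1, a chain of growth plate cartilage, was at most 1.02 FPKM, and COL7A1, the anchoring fibril of skin, at most 0.527 FPKM. COL9A2 and COL9A3, cartilage chains, were at most 0.210 and 3.32 FPKM, both highest in D105 replicate 2. COL26A1 was at most 0.251 FPKM, also in D105 replicate 2, and COL28A1 at most 1.84 FPKM. In that library COL9A3 and COL26A1 were at 6.59 and 3.52 times the higher of the other D105 libraries, at low levels.

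**Figure D5:**
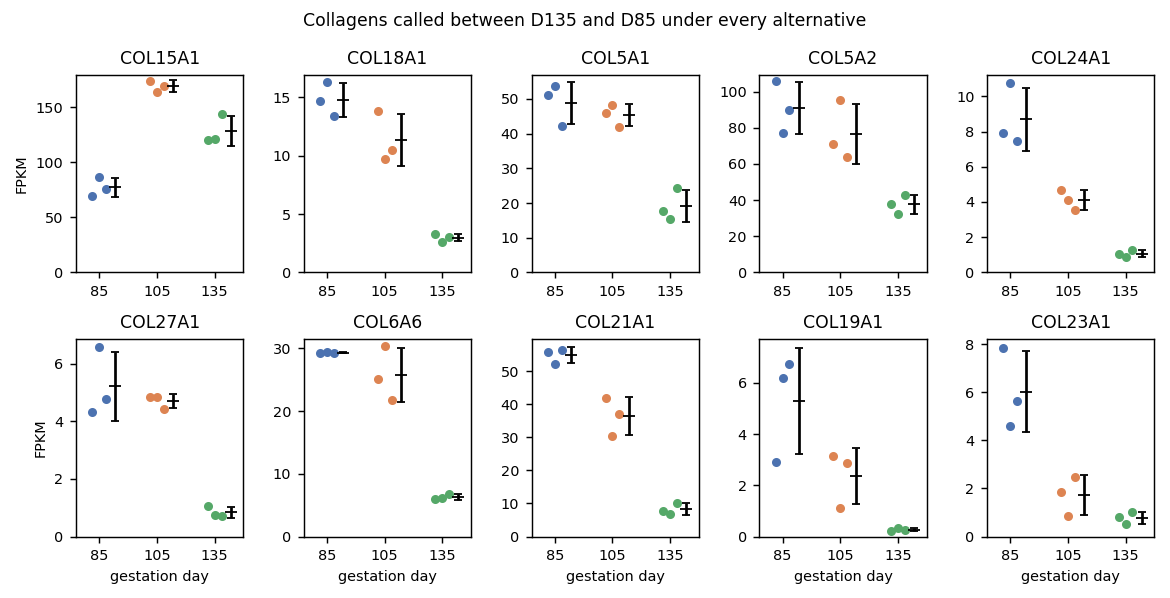
FPKM by gestation day of the 10 collagens called between D135 and D85 under all 22 alternatives, with a point per library and a bar at the mean ± SD (n = 3). COL15A1 is above its D85 level at D105 and D135, and the other 9 have their lowest values at D135.

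The calls that held under all 22 alternatives at D135 against D105 were the falls of COL5A1, COL6A6, COL18A1, COL21A1, COL24A1 and COL27A1. At D135 against D85 they were the rise of COL15A1 and 9 falls, those of the same 6 genes and of COL5A2, COL19A1 and COL23A1. Both comparisons use the same D135 libraries. Against the mean of D85 and D135, D105 was higher for COL15A1 (log2 change 0.76 ± 0.10, adjusted p = 0.0340) and COL6A6 (0.83 ± 0.10, adjusted p = 0.0286), where 0.275% of all tested loci were higher and 0.0764% lower. COL6A6 did not have its highest mean at D105, with 29.3, 25.7 and 6.29 FPKM at D85, D105 and D135, while COL15A1 did. The count of collagens higher in this contrast was 0 after median-of-ratios scaling and without D85 replicate 1, D85 replicate 3, D105 replicate 1, D135 replicate 1 or D135 replicate 2, and 1 without D105 replicate 2 or 3. A difference between any of the days was called for 17 of the 32 collagens by limma's moderated F test, 53.1%, beside 43.2% of all tested loci.

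Of the genes that make, export, crosslink, bind or cut collagen, 64 loci in 6 lists were tested. Between D105 and D85 limma called 0 of them, with 5 higher and 2 lower at an unadjusted p under 0.05, beside 5.65% and 6.66% of all tested loci. Between D135 and D105 it called 30 lower and 0 higher, beside 35% and 4.47% of all tested loci. After median-of-ratios scaling 10 were lower and 3 higher, beside 7.31% and 10.3%. Between D135 and D85 it called 30 lower and 3 higher, beside 39.7% and 6.9% of all tested loci, and after that scaling 10 lower and 6 higher, beside 12.8% and 14.8%. The lists were not tested against these shares.

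Of 19 genes that hydroxylate, glycosylate or fold collagen chains in the endoplasmic reticulum, 10 fell at D135 against D105 and 13 at D135 against D85, where 35% and 39.7% of all tested loci fell. The median log2 change of the list was -0.71 against D105, beside -0.33 for all loci, and after median-of-ratios scaling 3 were called lower in each comparison. P3H2, a prolyl 3-hydroxylase, averaged 14.1 ± 1.501 FPKM at D85, 10.0 ± 0.839 FPKM at D105 and 4.79 ± 0.935 FPKM at D135 (SD, n = 3). Its fall of 0.94 at D135 against D105 (adjusted p = 0.00246) held under all 22 alternatives. P4HB, the shared subunit of the prolyl 4-hydroxylases, averaged 136 ± 27.1, 132 ± 8.47 and 73.9 ± 7.26 FPKM on the same days and fell by 0.83 at D135 against D105 (adjusted p = 0.00627), a call lost with median-of-ratios scaling (adjusted p = 0.176). P3H3, a relative of P3H2, fell by 0.96 at D135 against D105 (adjusted p = 0.0144) and was not called after that scaling (adjusted p = 0.127). PPIB, the proline isomerase of this pathway, fell by 1.38 at D135 against D85 (adjusted p = 0.00830; after median-of-ratios scaling 0.0722). Its call against D105 (adjusted p = 0.0446) was lost under 13 alternatives, among them all leave-outs but those of D105 replicate 1 and D135 replicate 3 (adjusted p over the 13 up to 0.350). FKBP10, another isomerase, fell by 1.24 at D135 against D85 (adjusted p = 0.0159), and the call was lost without D85 replicate 1 and after either rescaling (adjusted p up to 0.0998).

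Of 11 genes of procollagen export and propeptide cleavage, 4 fell at D135 against D105, and at D135 against D85 3 fell and 1 rose, where 35% and 39.7% of all tested loci fell. After median-of-ratios scaling 0 fell in either comparison, and PCOLCE2 was the 1 called higher, against D85. PCOLCE2, an enhancer of propeptide cleavage, averaged 2.84 ± 1.30 FPKM at D85, 7.16 ± 3.66 FPKM at D105 and 12.1 ± 2.52 FPKM at D135. It rose by 1.81 at D135 against D85 (adjusted p = 0.00489), which held under all 22 alternatives. BMP1, the protease that removes the C-propeptide, averaged 14.7 ± 1.13, 15.2 ± 3.21 and 7.25 ± 1.90 FPKM on the same days. It fell by 0.97 at D135 against D105 (adjusted p = 0.00654), and was not called after median-of-ratios scaling (adjusted p = 0.0799). SEC23A, a coat protein of export vesicles, fell by 0.61 at D135 against D105 (adjusted p = 0.00691; after median-of-ratios scaling 0.350). TRAM2 fell by 0.49 (adjusted p = 0.0303), a call lost under 10 alternatives, among them the fits without D105 replicate 1, D105 replicate 2, D135 replicate 1 and D135 replicate 2 (adjusted p up to 0.452). PCOLCE averaged 41.2 ± 1.74, 53.5 ± 19.1 and 36.8 ± 13.7 FPKM at D85, D105 and D135 and was not called. Its D105 libraries were at 43.0, 75.5 and 42.0 FPKM, with replicate 2 the highest.

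Of 6 crosslinking enzymes, 3 fell in both comparisons with D135, where 35% and 39.7% of all tested loci fell, and the same 3 did so after median-of-ratios scaling. LOXL2, a lysyl oxidase relative, averaged 27.5 ± 2.12 FPKM at D85, 22.7 ± 2.53 FPKM at D105 and 7.68 ± 1.77 FPKM at D135. It fell by 1.46 at D135 against D105 (adjusted p = 0.000990) and by 1.73 at D135 against D85 (adjusted p = 0.000223). PXDN, the peroxidase that crosslinks type IV collagen, fell by 0.91 at D135 against D105 (adjusted p = 0.00255), and LOXL3 by 0.82 (adjusted p = 0.00507). LOX itself averaged 15.1 ± 2.28, 28.9 ± 27.99 and 14.8 ± 8.77 FPKM at D85, D105 and D135 and was not called. Its D105 libraries were at 11.4, 61.2 and 14.1 FPKM, with replicate 2 the highest.

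Of 14 small leucine-rich proteoglycans and fibril partners, 3 fell at D135 against D105, and at D135 against D85 3 fell and 1 rose, where 35% and 39.7% of all tested loci fell. After median-of-ratios scaling 2 fell and 2 rose in each comparison. ASPN, a proteoglycan that binds type I fibrils, averaged 42.9 ± 5.53 FPKM at D85, 41.1 ± 12.6 FPKM at D105 and 10.4 ± 2.40 FPKM at D135. It fell by 1.86 at D135 against D105 (adjusted p = 0.00162), and FN1, fibronectin, fell by 1.20 (adjusted p = 0.00246). Both falls held under all 22 alternatives, and DPT, dermatopontin, fell by 1.10 (adjusted p = 0.0124) but not after median-of-ratios scaling (adjusted p = 0.120). PRELP, a proteoglycan between basement membrane and fibrils, averaged 0.564 ± 0.183, 2.48 ± 1.21 and 4.17 ± 1.07 FPKM at D85, D105 and D135 and rose by 1.71 at D135 against D85 (adjusted p = 0.00235). It reached 1 FPKM in no D85 library, so it was tested through the later days alone. DCN, decorin, averaged 190.5 ± 48.4, 239 ± 129 and 158 ± 38.4 FPKM and SPARC 625 ± 72.1, 884 ± 363 and 563 ± 203 FPKM on those days, and neither was called. The D105 libraries were at 162, 388 and 168 FPKM for DCN and 677, 1304 and 672 FPKM for SPARC, with replicate 2 the highest.

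Of 9 collagen receptors, 6 fell at D135 against D105, and at D135 against D85 6 fell and 1 rose, where 35% and 39.7% of all tested loci fell and 4.47% and 6.9% rose. After median-of-ratios scaling 0 fell in either comparison, while 1 and 2 were called higher. MRC2, which takes up collagen fragments, fell by 0.98 at D135 against D105 (adjusted p = 0.00890) and DDR1, a discoidin domain receptor, by 0.60 (adjusted p = 0.0127). ITGB1, the integrin beta-1 chain, averaged 64.8 ± 3.44, 61.9 ± 4.91 and 46.0 ± 5.89 FPKM at D85, D105 and D135. Its fall of 0.42 at D135 against D105 (adjusted p = 0.0204) was lost under 6 alternatives, among them the fits without D105 replicate 2, D135 replicate 1 and D135 replicate 2 (adjusted p up to 0.968). ITGA2 fell by 0.998 (adjusted p = 0.0196), lost without D105 replicate 2 or D135 replicate 1 and after either rescaling (adjusted p up to 0.155). ITGA1 fell by 0.38 (adjusted p = 0.0481), lost under 15 alternatives, among them all leave-outs but that of D85 replicate 2 (adjusted p up to 0.849). ADGRG1, a receptor for type III collagen, averaged 0.671 ± 0.270, 1.57 ± 0.373 and 2.35 ± 0.413 FPKM at D85, D105 and D135. It rose by 1.01 at D135 against D85 (adjusted p = 0.00248), under all 22 alternatives. ADGRG1 reached 1 FPKM in no D85 library, so it was tested through the later days alone.

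Of 5 collagenases and gelatinases, 4 fell at D135 against D105 and 2 at D135 against D85, where 35% and 39.7% of all tested loci fell. After median-of-ratios scaling 2 fell in each comparison and 1 rose at D135 against D85. MMP1, an interstitial collagenase, averaged 1.66 ± 1.11 FPKM at D85, 4.35 ± 3.08 FPKM at D105 and 0.119 ± 0.0601 FPKM at D135, and fell by 2.05 at D135 against D105 (adjusted p = 0.0130). MMP2, a gelatinase, averaged 108 ± 12.9, 97.8 ± 7.46 and 44.5 ± 10.3 FPKM on the same days and fell by 1.14 at D135 against D105 (adjusted p = 0.00262). Both falls held under all 22 alternatives. MMP1 reached 1 FPKM in no D135 library, so it was tested through the earlier days alone. MMP14, the membrane protease that activates MMP2, fell by 1.21 (adjusted p = 0.00853) and MMP9 by 0.79 (adjusted p = 0.00947), and neither was called after median-of-ratios scaling (adjusted p = 0.0706 and 0.0542). MMP9 was at 1.32, 1.59 and 1.56 FPKM at D105 and below 1 FPKM in all other libraries. It was therefore tested only through the day where it was high, which favours its call, and was not tested with a D105 library left out. MMP14 also fell by 1.59 at D135 against D85 (adjusted p = 0.00191), a fall that held under all 22 alternatives.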

How the data were processed

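The FPKM values were deposited by the authors as one table of loci by libraries, per the file headers. Total RNA was extracted with Trizol and libraries were made with Illumina mRNA and small RNA kits, per the labels' protocols. Cutadapt, Bowtie2 and TopHat2 were used, per the submitters' processing notes. No coordinates are printed, as the genome build and the assembly and counting of loci were not given in those notes or the other sources used here. A sequencing batch could not be tested, because the series' design text names a pair of HiSeq models but no instrument for any given library. FPKM holds no counts, so no count test was run, and a value of 0 may be a failed estimate. There are 211 loci that join several names.

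Libraries were grouped by the day in the labels. The 13086 loci that reached 1 FPKM in 3 or more libraries were fitted as log2(FPKM + 1) in limma 3.58.1 (R 4.3.3; lmFit, contrasts, eBayes with a trend), all 9 libraries together without a block. Tests were two-sided with Benjamini-Hochberg adjustment over all of these loci and a threshold of 0.05. A low gene could enter the fit only through the days where it was high, which favours its call. The fit was tested on simulated data. Chain ratios were compared by exact permutation. Libraries with the same replicate number did not deviate together across loci, which cannot exclude that they share a batch. The 22 alternatives changed the pseudocount (0.1 or 0.5), the scaling (totals without the top 50 loci, quantiles or median of ratios), the filter, the eBayes variance model, the weights of libraries, the handling of loci with the same name, the days fitted and the use of a replicate block, or left out each library.

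The collagens and all gene lists were chosen with earlier results of these data known. The 6 lists of collagen-related genes matched 71 of 73 entries and the 11 cell type marker lists 103 of 114, and a RefSeq gene table of the assembly ARS-UI_Ramb_v3.0 was used for names and neighbours alone. Values in every library are given for collagens called in any pair of days and for the 3 of highest mean per class. They are also given for tested collagens at least 3 times higher in D105 replicate 2 than in both other D105 libraries. COL9A3 and COL26A1 passed that ratio but were not tested, so only their maxima and ratios are given. Of each list, up to 4 called genes with the largest change and the 2 of highest mean are named. COL4A2 and the collagens given only by range or maximum fall outside this rule. COL22A1, TNMD, FMOD, KERA, SCX, EGR1, TPPP3, SOX9, MATN1, MIA, ACAN, COMP, TCF7L2 and PI16 were singled out after their values were seen. Figures used matplotlib 3.10.9 in Python 3.11.15.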

Additional observations from a re-analysis of the deposited data

How the results depend on the processing

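Depth, and with it the error of low values, is unknown because FPKM holds no counts. The 3 libraries per day and the lack of reads per gene limit what can be called. Of all tested loci 5164 were called between D135 and D105, 2301 with median-of-ratios scaling and 2058 with quantile normalization, and between D135 and D85 the counts were 6097, 3615 and 3542. Of 33 collagen calls followed, 11 were no longer called after median-of-ratios scaling, 11 after quantile normalization, 4 with totals taken without the top 50 loci, and 2 to 7 in the fits that each left out a library. Among them COL15A1 at D135 against D105 had a change near 0 with the other sign after median-of-ratios scaling, 0.0433 (adjusted p = 0.846). Quantile normalization ended calls at D135 against D105 for COL13A1, COL16A1, COL19A1, COL20A1, COL4A5 and COL5A3, and at D135 against D85 for COL13A1, COL20A1, COL25A1, COL4A5 and COL5A3 (adjusted p from 0.0555 to 0.479). Pseudocounts of 0.1 and 0.5, the filter of 1 library, summed loci, robust eBayes, eBayes without a trend and library weights lost 0 of the 33. The count of collagens higher at D105 against D85 (1) was 0 to 1 over the fits that each left out a library. The count lower at D135 against D105 (15) was 8 after median-of-ratios scaling, 9 after quantile normalization and 10 to 15 over the leave-outs, and the count higher (0) was 1 without the filter, namely COL4A3, whose highest library was 0.313 FPKM. The count higher at D135 against D85 (2) was 4 after median-of-ratios scaling and 1 to 4 over the leave-outs, COL6A3 and COL14A1 being added without D105 replicate 2, and the count lower (15) was 11 after median-of-ratios scaling, 10 after quantile normalization and 13 to 16 over the leave-outs. The count higher at D105 relative to the mean over D85 and D135 (2) was 0 after median-of-ratios scaling, 1 after quantile normalization, 1 without the top 50 loci, 5 with library weights and 0 to 2 over the leave-outs. The count for any day (17) was 10 after median-of-ratios scaling, 11 after quantile normalization and 11 to 18 over the leave-outs. The collagen-related genes called at D135 against D105 (30) were 13 with median-of-ratios scaling and 17 with quantile normalization, and those at D135 against D85 (33) were 16 after median-of-ratios scaling. Libraries with the same replicate number did not deviate together (Pearson r across loci from -0.07 to 0.06 over 9 pairs, 2 of 9 libraries correlating best with their own number). With a replicate block the collagens called were 0 at D105 against D85 (COL15A1, adjusted p = 0.0947), 12 lower at D135 against D105, 1 higher and 15 lower at D135 against D85, and 0 at D105 relative to the mean over D85 and D135. The causes of these changes were not tested.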

Other observations

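Marker genes of other cell types were measured in the same libraries. The 10 smooth muscle and pericyte loci summed to 230 to 259 FPKM at D85, 196 to 258 FPKM at D105 and 159 to 189 FPKM at D135. The 10 Schwann cell and nerve loci summed to 63.5 to 67.0 FPKM at D85, 61.5 to 71.6 FPKM at D105 and 51.6 to 84.6 FPKM at D135, with FOXD3 listed at 0 in all libraries. The 9 adipocyte loci summed to 7.03 to 20.7 FPKM at D85, 11.3 to 121 FPKM at D105 and 18.9 to 79.5 FPKM at D135. The 8 leukocyte loci summed to 15.9 to 36.8, 17.6 to 39.1 and 15.3 to 20.2 FPKM on the same days. The 9 bone loci summed to at most 2.58 FPKM and the 6 epidermis loci to at most 3.56 FPKM in any library.

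FMOD, a proteoglycan of tendon fibrils, was at 19.3, 14.8 and 5.45 FPKM at D85, 7.32, 164 and 10.1 FPKM at D105, and 1.36, 35.3 and 68.4 FPKM at D135.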
